A study of Mus musculus with 8 samples.

Results

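The genes described here move proteins and membrane between the compartments of a cell: SNAREs, vesicle coats and their adaptors, tethers, sorting nexins, Vps proteins, V-ATPase subunits, lysosomal glycoproteins and cathepsins. They were chosen by symbol alone, from patterns such as Vamp, Snx or Atp6v in the probe annotation, and 92 of the 5822 symbols on the array matched. Of these, 64 had a value on at least 3 arrays of each genotype and were tested, among 2900 named genes and 605 features without a single symbol. The study cultured cortical astrocytes from neonatal mice, either wild type (WT) or without connexin43 (Cx43 KO, called null in the labels), and hybridised their RNA on 2-colour arrays of printed mouse DNA sequences. Each of the 8 arrays, 4 per genotype, set 1 astrocyte RNA against the same reference, RNA pooled from organs of adult mice of both sexes, with lung, liver, kidney, stomach, spleen, brain, gonads and parts of the circulation. The labels give the strain C57BL/6j for the first WT culture and the pool, and no treatment. They do not say how the Cx43 null allele was made, how many pups or cultures stand behind an array, or how old the cultures were. What a p-value measures here is therefore the scatter among these 8 samples, and that scatter may be technical. Lot batches 1 to 4 in the labels equal the replicate numbers, so each held 1 array of each genotype. The array used as Cx43 KO 3 is titled Cx43 without the word KO.

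Proteins made in the endoplasmic reticulum (ER) leave it in COPII-coated vesicles, return from the Golgi in COPI-coated ones, and are sorted at the Golgi and endosomes by clathrin adaptors, sorting nexins and the retromer. Tethers catch each vesicle and SNARE proteins on both membranes fuse it with its target. Lysosomes, acidified by the V-ATPase, receive cathepsins by this route. Astrocytes use the same machinery to recycle transporters, to release peptides and transmitters and to digest what they take up, and connexins themselves are carried to the surface and to lysosomes along it.

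Each value is a log ratio of astrocytes over pool, read as log2 and centred on the median of its array, so that 0 is the median feature of an array and not equal abundance. The direction was taken from genes of adult organs, since the labels do not state it: the lung and stomach genes Sftpc and Gkn2 were at -4.93 or lower on every array, and the glial gene Fabp7 at 3.06 or higher. Apoc3 and Scgb1a1 were also under -4.93 wherever they had a value. The organ genes Sftpb, Kap and Tnnt2 were below 0 throughout, but only at -1.88 to -0.20. Among the astrocyte markers tested, Fabp7, Sox9 and Nfib were above 0 wherever they had a value, while Aldoc, Id4 and Ttyh1 were not. Aldoc ran from -1.07 to 0.88. If the ratio ran the other way, every sign below would turn. A ratio says how astrocytes compare with the pool for 1 gene, and not which of 2 genes is more abundant. In such bulk samples, fewer cells of a type and less RNA per cell cannot be told apart. The array Cx43 KO 4 stood apart: its mean of 8 microglia and macrophage markers was 2.64, against -0.28 to 1.48 elsewhere, and its mean of 4 astrocyte markers 0.39, against 1.62 to 2.01. Of the microglia and macrophage markers tested, Tmem119, Tyrobp, Ly86 and Fcgr3 were not highest on that array. Of 22 astrocyte markers listed, 8 were on the array by symbol, 6 were tested, and Slc1a2 was at 0 on all arrays. Gja1, which encodes connexin43, has 0 features in the annotation, so the knockout was not checked here.

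Between genotypes, no vesicle or lysosome gene passed the test. None of the 64 passed limma's test at an adjusted p of 0.05, as none of the 3505 genes and features did (0%). At an unadjusted p of 0.05 there were 4, or 6.25% of the members, against 7.5% of all tested: Vamp2, Snx27 and the V-ATPase subunit Atp6v1c1 were higher in Cx43 KO (3 members, against 3.85% of all tested), and the COPII-associated Sec23ip was lower (1 member, against 3.65%). Their unadjusted p-values lay between 0.0283 and 0.0453. The differences ran from -0.51 for Ap1g1 to 0.81 for Vamp2, with a median absolute size of 0.15, against 0.18 over all named genes. For 58 of the 64, the 95% interval of the difference lay between -1 and 1, so that a change of 2-fold or more in either direction lay outside it. Such an interval does not show that the genotypes were alike.

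Slightly more members lay higher than lower in Cx43 KO, 41 against 23 (64.1%, with 52.6% above 0 among all tested), and their median difference was 0.073 on the log2 scale, against 0.017 for all tested. Without Cx43 KO 4, 53.2% of the members were higher and the median was 0.027. It was 0.026 without lot batch 4, 0.14 without WT 1 and 0.15 without lot batch 1. The count of 4 at an unadjusted p of 0.05 was 1 when the fit took the lot batch as its replicate block. That gene was Ap1g1, lower in Cx43 KO with an unadjusted p of 0.0492, against 0.0522 without the block. All 4 genes named above lost their call there, Atp6v1c1 at an unadjusted p of 0.0641, Sec23ip at 0.103, Vamp2 at 0.112 and Snx27 at 0.165. It was 0 without WT 1, WT 3 or Cx43 KO 3 and without lot batches 1 or 3, 1 without Cx43 KO 2, 2 without Cx43 KO 1 or without lot batch 2, and 8 without Cx43 KO 4. In 5 genes the values of the genotypes did not overlap. Atp6v1c1 and Vps41 were higher on every Cx43 KO array than on any WT array, 3.12% of the members against 2.43% of all tested. Sec23ip, Snx21 and Sec14l2 were lower on every Cx43 KO array, 4.69% against 2.8%.

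**Figure D1:**
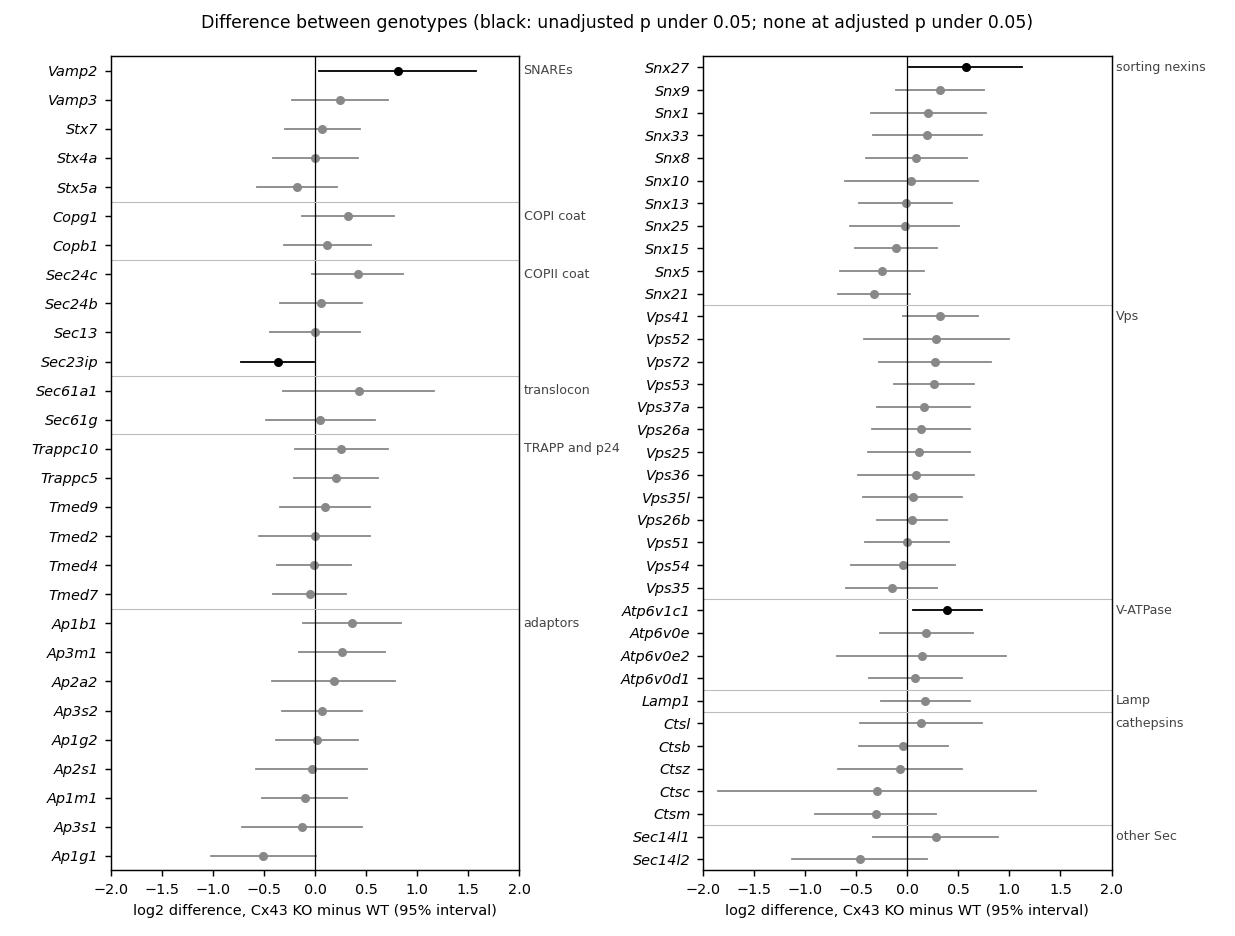
Log2 difference between Cx43 KO and WT for each of the 64 tested genes, grouped by role, with the 95% interval from limma's fit over all 3505 genes and features. The 4 genes in black have an unadjusted p under 0.05, and the other 60 intervals cross 0.

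Against the tissue pool, most of these genes lay on the astrocyte side. Among the 54 members with a value on all 8 arrays, 24 were above 0 on every array (44.4%, against 25.8% of the 2163 named genes with 8 values) and 8 were below 0 on every array (14.8%, against 25.2%). Their median ratio was 0.34, against 0.043 for those named genes. Mean ratios were moderate: 5 of 54 lay at least 2-fold from 0 (9.26%, against 19.7%), namely the protease gene Ctsb, the tether Trappc10, Snx10 and Snx33 above it and the adaptor Ap1g1 below it. By mean ratio, 37 of the 54 were above 0 (68.5%, against 52.7%). The genes always above 0 included 6 of 9 sorting nexins, 4 of 6 TRAPP and p24 genes, 2 of 4 COPII genes, 2 of 4 SNAREs and 2 of 4 cathepsins. The share was lower in other roles, with 3 of 10 Vps genes, 2 of 9 clathrin adaptors, 1 of 4 V-ATPase subunits and 0 of 2 Sec61 genes. Those always below 0 were Ap1g1, Ap1g2, Ap1m1, Vps51, Vps54, Sec61g, Snx21 and Atp6v1c1.

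**Figure D2:**
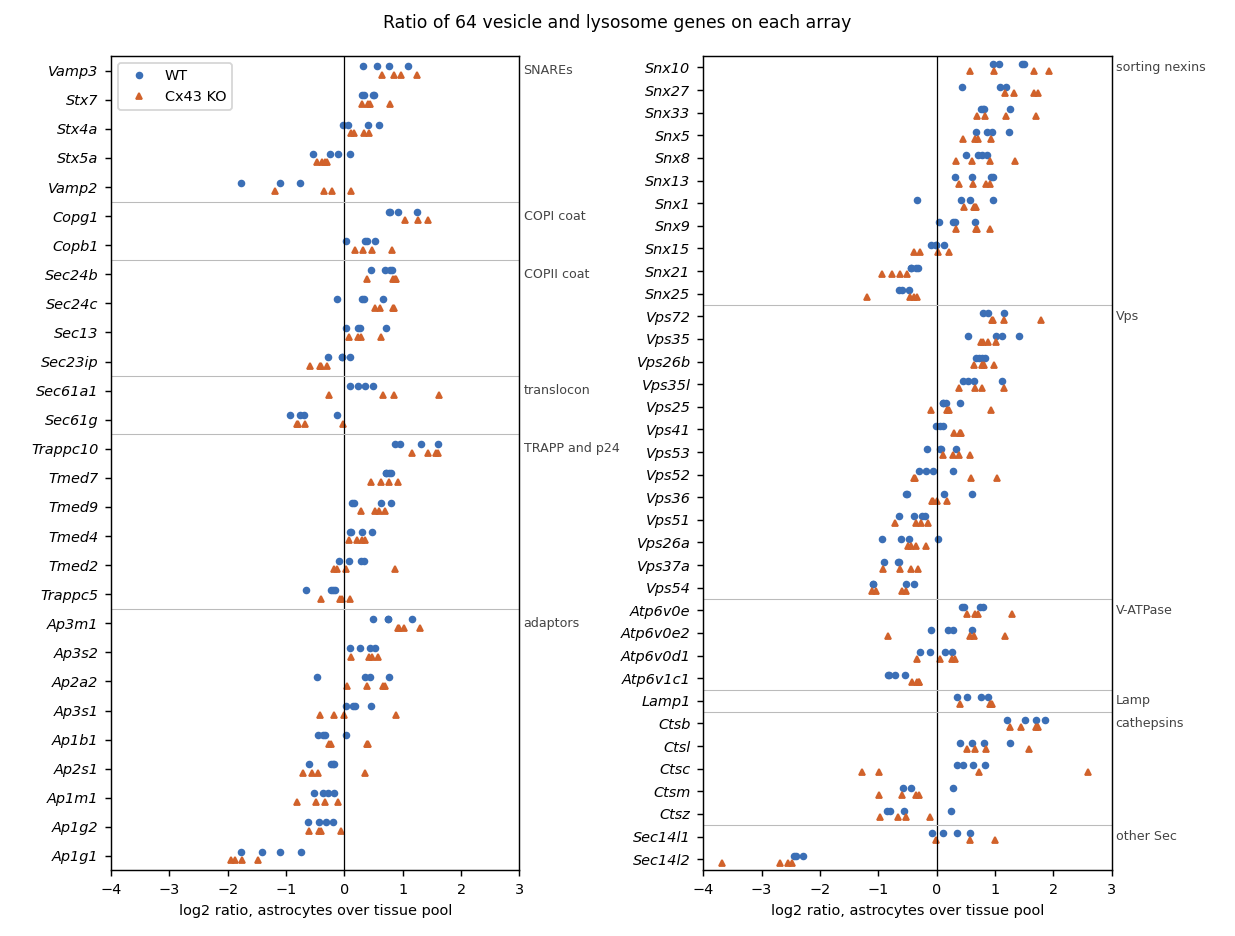
Log2 ratio of astrocytes over the tissue pool, centred on each array's median, for the 64 tested genes on each array. Circles are WT and triangles Cx43 KO, 1 point per array with a value. Most sorting nexins lie to the right of 0, the AP-1 adaptor genes Ap1g1, Ap1g2 and Ap1m1 lie to the left of it, and Ctsc spreads over the widest range within Cx43 KO, from -1.28 to 2.59.

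SNAREs pull 2 membranes together so that they fuse. Among 11 SNARE genes, 5 could be tested. Of these, 4 were higher and 1 lower in Cx43 KO, and 0 passed the adjusted test. Vamp2, the SNARE of synaptic and other secretory vesicles, had the largest difference of all members. Its log2 ratio was -1.78, -1.10 and -0.77 for WT 1, 3 and 4, and -0.34, -0.22, 0.10 and -1.19 for Cx43 KO 1 to 4. It therefore lay below 0 on all WT arrays, and 3 Cx43 KO arrays lay above every WT array while Cx43 KO 4 lay below WT 3 and WT 4. The means were -1.22 ± 0.51 for WT (SD, n = 3) and -0.41 ± 0.55 for Cx43 KO (SD, n = 4), a difference of 0.81 or 1.75-fold (SE 0.34, limma adjusted p = 0.655). Without Cx43 KO 4 the difference was 1.06 (limma adjusted p = 0.218). The neuron markers Map2, Nefm and Uchl1 had mean ratios of -1.10, -0.19, -0.86 and -0.33 for WT 1 to 4 and -0.60, -0.17, -0.55 and -1.88 for Cx43 KO 1 to 4, lowest on WT 1 and Cx43 KO 4, where Vamp2 was lowest in each genotype. Within that mean, Nefm and Uchl1 were lowest on the same arrays, but Nefm on Cx43 KO 4 only just, at -2.01 against -1.94 on Cx43 KO 1. Map2 was at -2.54 on Cx43 KO 4, but in WT it was lowest on WT 3, at 0.085 against 0.28 on WT 1. Rbfox3, a further neuron marker without a value on WT 2, ran the other way, highest in WT on WT 1 at -1.23 and highest in Cx43 KO on Cx43 KO 4 at -1.13. These 4 were the tested ones of 9 neuron markers on the array, 0 of them with an unadjusted p under 0.05. Their part in the Vamp2 values was not tested.

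Vamp3, the related SNARE of recycling endosomes, lay above 0 everywhere, with ratios of 0.76, 0.57, 0.33 and 1.08 for WT 1 to 4 and 0.96, 0.65, 1.25 and 0.86 for Cx43 KO 1 to 4. The genotypes overlapped, and the difference was 0.24 (SE 0.21, limma adjusted p = 0.808). Stx7, a SNARE of late endosomes, was also above 0 on all arrays (0.31 to 0.78). Stx4a, which receives vesicles at the plasma membrane, ran from -0.020 to 0.59 and its genotype means were nearly equal, both at 0.26. Stx5a, the SNARE of the Golgi, was the lowest in ratio of the 4 with 8 values, at -0.11, 0.10, -0.24 and -0.54 for WT 1 to 4 and -0.30, -0.39, -0.48 and -0.34 for Cx43 KO 1 to 4, a difference of -0.18 (SE 0.18, limma adjusted p = 0.835). The Cx43 KO values of Stx5a fell inside the range of WT.

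The COPI coat returns vesicles from the Golgi to the ER. Its 2 tested genes were above 0 on every array with a value. Copg1, the gamma subunit, had ratios of 1.24, 0.76, 0.78 and 0.92 for WT 1 to 4 and 1.42, 1.04 and 1.26 for Cx43 KO 2, 3 and 4, and differed by 0.32 (SE 0.20, limma adjusted p = 0.754). It was higher in Cx43 KO in the 3 lot batches with both arrays, but WT 1 lay within the range of Cx43 KO. The difference was 0.14 with quantile and 0.13 with scale normalization. Copb1, the beta subunit, had 0.52, 0.35, 0.39 and 0.034 for WT 1 to 4 and 0.18, 0.47, 0.31 and 0.81 for Cx43 KO 1 to 4. The genotypes overlapped, with the lowest value on WT 4 and the highest on Cx43 KO 4.

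COPII carries cargo out of the ER, with Sec24 proteins gripping the cargo and Sec13 in the outer cage. Sec23ip, a partner of the coat at ER exit sites, was the only member of its role whose genotypes did not overlap. Its ratios were 0.10, -0.036, -0.035 and -0.29 for WT 1 to 4 and -0.59, -0.43, -0.40 and -0.31 for Cx43 KO 1 to 4. Every Cx43 KO array lay below every WT array, though Cx43 KO 4 and WT 4 were only just apart. The means were -0.065 ± 0.16 for WT (SD, n = 4) and -0.43 ± 0.12 for Cx43 KO (SD, n = 4), a difference of -0.37 or 1.29-fold lower (SE 0.16, limma adjusted p = 0.658). Sec24c went the other way in each lot batch, with 0.29, -0.13, 0.34 and 0.67 for WT 1 to 4 and 0.61, 0.52, 0.86 and 0.83 for Cx43 KO 1 to 4. WT 4 overlapped with Cx43 KO 1 and 2, and the difference was 0.41 (SE 0.20, limma adjusted p = 0.685). Sec24b and Sec13 were above 0 on all arrays, at 0.38 to 0.89 and 0.033 to 0.71, with differences of 0.055 and -0.0039. The arrays did not all average the same features for Sec24b. Over the role, 2 genes were higher and 2 lower.

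At the ER membrane itself, Sec61a1 forms the channel through which new proteins enter and Sec61g is a small subunit of the same channel. Sec61a1 had ratios of 0.50, 0.093, 0.23 and 0.34 for WT 1 to 4 and 0.65, -0.26, 0.85 and 1.62 for Cx43 KO 1 to 4. Sec61g had -0.12, -0.76, -0.69 and -0.93 for WT 1 to 4 and -0.81, -0.79, -0.68 and -0.030 for Cx43 KO 1 to 4. Both were highest of all arrays on Cx43 KO 4, and Sec61a1 was lowest of all on Cx43 KO 2. With this spread the differences were 0.42 (SE 0.33, limma adjusted p = 0.791) and 0.048 (SE 0.24, limma adjusted p = 0.985). Without Cx43 KO 4 they were 0.12 and -0.13.

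TRAPP complexes tether vesicles at the Golgi, and p24 proteins of the Tmed family escort cargo between ER and Golgi. Of 11 such genes 6 were tested, 3 higher and 3 lower, with a median difference of 0.045. Trappc10, a subunit of the TRAPPII form, was strongly on the astrocyte side, with 0.87, 1.31, 0.95 and 1.60 for WT 1 to 4 and 1.43, 1.57, 1.60 and 1.15 for Cx43 KO 1 to 4. All 8 values were above 0.8, the genotypes overlapped, and the difference was 0.25 (SE 0.21, limma adjusted p = 0.799). Trappc5, a core subunit, was near or below 0, at -0.19, -0.23, -0.66 and -0.17 for WT 1 to 4 and -0.038, 0.090, -0.081 and -0.40 for Cx43 KO 1 to 4. Its Cx43 KO values were the higher ones in lot batches 1 to 3 but not in 4. The p24 genes Tmed4, Tmed7 and Tmed9 were above 0 on all arrays, at 0.080 to 0.47, 0.45 to 0.93 and 0.14 to 0.79. Tmed2 crossed 0 and was highest on Cx43 KO 4 at 0.87. The differences of these 4 p24 genes lay between -0.056 and 0.095.

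Clathrin adaptors pick cargo for clathrin-coated vesicles: AP-1 at the Golgi and endosomes, AP-2 at the plasma membrane, and AP-3 on the way to lysosomes. Of the tested AP-1 genes, 3 of 4 were below 0 on every array, and the complex had a median ratio of -0.38, while 2 of the 3 AP-3 genes were above 0 on every array and their median was 0.36. This grouping into complexes was made after the values were seen. Ap1g1, the gamma subunit of AP-1, had the lowest mean of all members with 8 values. Its ratios were -0.74, -1.41, -1.10 and -1.77 for WT 1 to 4 and -1.48, -1.88, -1.94 and -1.75 for Cx43 KO 1 to 4. WT 4 lay among the Cx43 KO values, and the other WT arrays lay above them all. The means were -1.25 ± 0.44 for WT (SD, n = 4) and -1.76 ± 0.20 for Cx43 KO (SD, n = 4), a difference of -0.51 or 1.42-fold lower (SE 0.23, limma adjusted p = 0.666). With scale normalization the difference was -0.28, and without WT 1 it was -0.34. Its paralogue Ap1g2 had a difference of 0.015 and ratios of -0.62 to -0.059. The medium subunit gene Ap1m1 ran from -0.81 to -0.11.

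The large subunit gene Ap1b1 had a difference of the opposite sign to Ap1g1, with -0.38, -0.45, -0.33 and 0.027 for WT 1 to 4 and -0.26, -0.23, 0.41 and 0.39 for Cx43 KO 1 to 4. It was higher in Cx43 KO in all 4 lot batches, mostly through Cx43 KO 3 and 4, and differed by 0.36 (SE 0.22, limma adjusted p = 0.753). In AP-3, the medium subunit gene Ap3m1 had 0.74, 0.48, 0.75 and 1.16 for WT 1 to 4 and 1.02, 0.92, 0.94 and 1.30 for Cx43 KO 1 to 4, also higher in all 4 lot batches (0.26, SE 0.19, limma adjusted p = 0.778). Its 2 features with 8 values differed by 0.086 and 0.43. The small subunit genes were Ap3s2, at 0.095 to 0.57, and Ap3s1, at -0.41 to 0.88 with its highest value on Cx43 KO 4. The AP-2 genes Ap2a2 and Ap2s1 ran from -0.47 to 0.76 and -0.71 to 0.36. Across the 9 adaptors 5 were higher and 4 lower, with a median difference of 0.015.

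Sorting nexins bind the lipid of endosomes through a PX domain and shape or sort their membrane. All 11 on the array were tested, 6 higher and 5 lower, with a median difference of 0.038. Snx27, which hands cargo with PDZ-binding tails to the retromer, had ratios of 0.44, 1.09 and 1.18 for WT 1, 3 and 4 and 1.66, 1.74, 1.33 and 1.17 for Cx43 KO 1 to 4. Cx43 KO 4 lay just under WT 4, and the other Cx43 KO arrays lay above every WT array, with WT 1 far below the rest. The means were 0.90 ± 0.41 for WT (SD, n = 3) and 1.48 ± 0.27 for Cx43 KO (SD, n = 4), a difference of 0.57 or 1.49-fold (SE 0.25, limma adjusted p = 0.658). With quantile or scale normalization the difference of Snx27 was 0.43 or 0.42 (limma unadjusted p = 0.128 for both). From its feature with the most values alone it was 0.43 (limma unadjusted p = 0.0932). Snx9, which works with dynamin in endocytosis, was higher in all 4 lot batches, with 0.66, 0.044, 0.28 and 0.32 for WT 1 to 4 and 0.67, 0.69, 0.91 and 0.33 for Cx43 KO 1 to 4. WT 1 and Cx43 KO 4 overlapped, and the difference was 0.32 (SE 0.19, limma adjusted p = 0.753).

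Snx21 was lower in Cx43 KO on all arrays, with ratios of -0.43, -0.32, -0.44 and -0.34 for WT 1 to 4 and -0.77, -0.93, -0.63 and -0.51 for Cx43 KO 1 to 4. The WT values were tightly grouped, the Cx43 KO values were more spread, and the means were -0.39 ± 0.061 for WT (SD, n = 4) and -0.71 ± 0.18 for Cx43 KO (SD, n = 4) (-0.32, SE 0.16, limma adjusted p = 0.687). Arrays did not all average the same features of this gene. Snx5, a retromer-linked nexin that bends membrane into tubules, was above 0 everywhere but lower in Cx43 KO in 3 of 4 lot batches, at 0.87, 0.94, 1.25 and 0.67 for WT 1 to 4 and 0.93, 0.70, 0.65 and 0.46 for Cx43 KO 1 to 4 (-0.25, SE 0.18, limma adjusted p = 0.778). Quantile and scale normalization both gave -0.39. Its partner Snx1 had -0.34, 0.57, 0.42 and 0.98 for WT 1 to 4 and 0.47, 0.65, 0.68 and 0.66 for Cx43 KO 1 to 4, with only WT 1 below 0. Snx10 had the highest mean ratio of the nexins, 2.41-fold above 0, with 1.07, 1.50, 1.46 and 0.98 for WT 1 to 4 and 0.58, 1.66, 0.99 and 1.93 for Cx43 KO 1 to 4. Its Cx43 KO values held both the lowest and the highest of the 8. The other nexins above 0 on all arrays were Snx8, Snx13 and Snx33, at 0.34 to 1.35, 0.32 to 0.98 and 0.69 to 1.71. Snx15 lay around 0 (-0.39 to 0.22) and Snx25 below it (-1.19 to -0.34), with the lowest value of both on Cx43 KO 4.

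**Figure D3:**
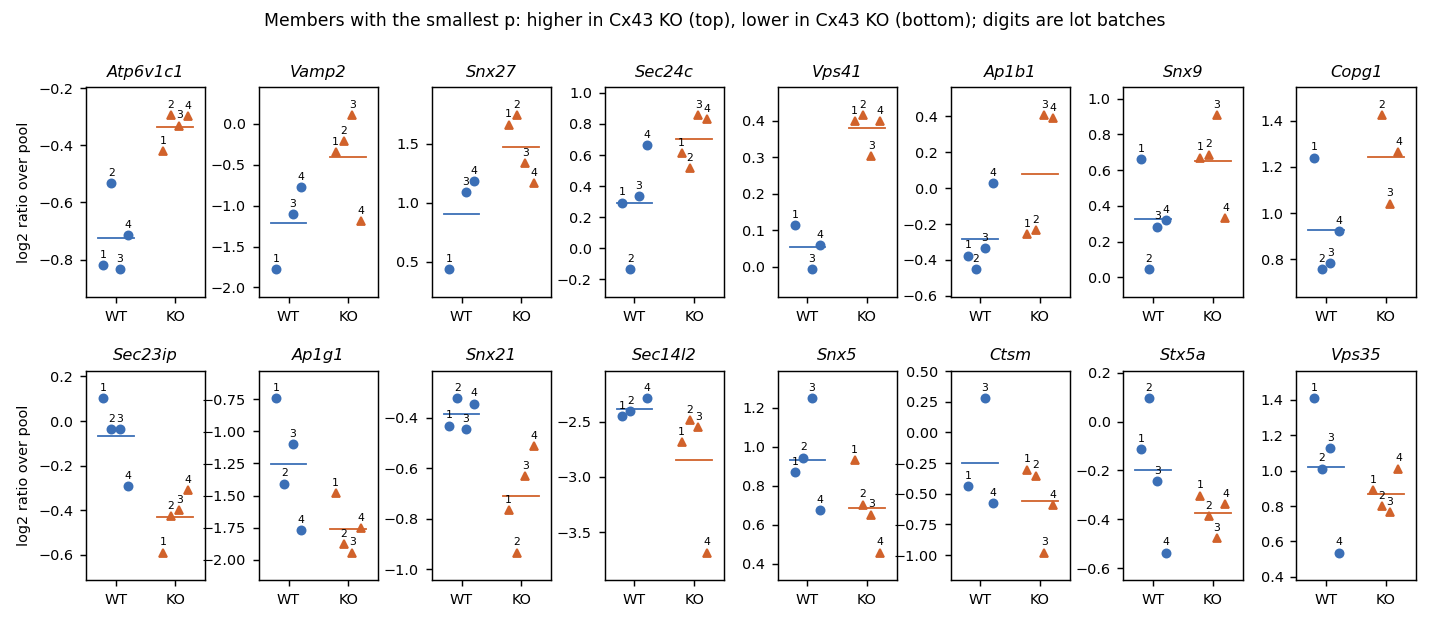
Log2 ratio over the pool on each array for the 8 members with the smallest p in each direction, higher in Cx43 KO above and lower below. Digits give the lot batch, horizontal lines the genotype means, and each panel has its own axis. None of the 16 genes passed at an adjusted p of 0.05, and only Atp6v1c1, Vps41, Sec23ip, Snx21 and Sec14l2 show no overlap between genotypes.

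Vps genes were first found as yeast genes needed to deliver proteins to the vacuole, and they encode parts of several complexes. Of 16 on the array 13 were tested, 10 higher and 3 lower, with a median difference of 0.11. The retromer returns receptors from endosomes. Its core gene Vps35 had ratios of 1.41, 1.01, 1.13 and 0.54 for WT 1 to 4 and 0.89, 0.80, 0.76 and 1.01 for Cx43 KO 1 to 4, all above 0.5, and differed by -0.16 (SE 0.20, limma adjusted p = 0.875). The difference was -0.31 with quantile and -0.33 with scale normalization, and -0.026 without WT 1. The subunit it binds is encoded by 2 genes that stood on opposite sides of 0. Vps26b ran from 0.64 to 0.98 and was among the least variable members, whereas Vps26a lay at 0.032, -0.61, -0.93 and -0.48 for WT 1 to 4 and -0.34, -0.44, -0.49 and -0.18 for Cx43 KO 1 to 4. The genotypes differed by 0.045 and 0.13. Vps35l, of the related retriever complex, ran from 0.39 to 1.16.

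Vps41 is a subunit of HOPS, which tethers late endosomes to lysosomes. Its ratios were 0.11, -0.0075 and 0.059 for WT 1, 3 and 4 and 0.40, 0.42, 0.30 and 0.40 for Cx43 KO 1 to 4. All Cx43 KO values lay above those of WT, and WT 2 had no value. The means were 0.055 ± 0.061 for WT (SD, n = 3) and 0.38 ± 0.051 for Cx43 KO (SD, n = 4), and the difference was 0.32 (SE 0.16, limma adjusted p = 0.696). The GARP and EARP tethers of the Golgi and endosomes share Vps51, Vps52 and Vps53, and Vps54 is in GARP only. Vps53 was higher in all 4 lot batches, with -0.16, 0.33, 0.061 and 0.077 for WT 1 to 4 and 0.28, 0.57, 0.39 and 0.11 for Cx43 KO 1 to 4 (0.26, SE 0.18, limma adjusted p = 0.776). Vps51 and Vps54 were below 0 on all arrays, Vps51 at -0.70 to -0.15 and Vps54 at -0.52, -1.08, -1.09 and -0.39 for WT 1 to 4 and -0.59, -1.11, -1.04 and -0.52 for Cx43 KO 1 to 4. Vps52 was split within Cx43 KO, at -0.36, -0.39, 1.03 and 0.60 for Cx43 KO 1 to 4, against -0.060, -0.17, -0.31 and 0.29 for WT 1 to 4. The arrays did not all average the same features for Vps52 and Vps53, and the features of Vps51 lay on both sides of 0. The ESCRT genes Vps25, Vps36 and Vps37a, which sort cargo into endosomes' inner vesicles, ran from -0.090 to 0.94, -0.53 to 0.61 and -0.91 to -0.31, each with a mean difference under 0.17. Vps72 matches by name but encodes a subunit of a chromatin remodelling complex, and lay at 0.80 to 1.80.

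The V-ATPase pumps protons into endosomes and lysosomes, with a V0 sector in the membrane and a V1 sector that splits ATP. All 4 tested subunits of 6 on the array were higher in Cx43 KO, with a median difference of 0.16, 0 past the adjusted test. Of all genes and features tested, 52.6% lay above 0. Atp6v1c1, the V1 subunit that clamps the sectors together, had the smallest p of all members. Its ratios were -0.82, -0.53, -0.83 and -0.72 for WT 1 to 4 and -0.42, -0.29, -0.33 and -0.30 for Cx43 KO 1 to 4. All 8 values were below 0, and all 4 Cx43 KO values lay above those of WT. The means were -0.73 ± 0.14 for WT (SD, n = 4) and -0.34 ± 0.059 for Cx43 KO (SD, n = 4), a difference of 0.39 or 1.31-fold (SE 0.15, limma adjusted p = 0.655). Over leaving out single arrays or lot batches the difference stayed between 0.35 and 0.45. The V0 genes showed no such separation. Over the same fits their differences ran from -0.083 to 0.22 for Atp6v0d1, -0.14 to 0.67 for Atp6v0e2 and 0.018 to 0.28 for Atp6v0e. Atp6v0e had 0.74, 0.47, 0.44 and 0.79 for WT 1 to 4 and 0.66, 0.52, 0.71 and 1.30 for Cx43 KO 1 to 4, and Atp6v0d1 lay around 0 at -0.34 to 0.31.

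Atp6v0e2, a paralogue of Atp6v0e, had ratios of 0.29, -0.091, 0.20 and 0.61 for WT 1 to 4 and 0.64, 0.58, 1.18 and -0.83 for Cx43 KO 1 to 4. Cx43 KO 4 was the lowest array for this gene and the highest for Atp6v0e. With all arrays Atp6v0e2 differed by 0.14 (SE 0.37, limma adjusted p = 0.955), and without Cx43 KO 4 by 0.55 (limma adjusted p = 0.359). Lamp1, the abundant glycoprotein of the lysosomal membrane, was above 0 everywhere, with 0.76, 0.52, 0.35 and 0.87 for WT 1 to 4 and 0.94, 0.91, 0.96 and 0.41 for Cx43 KO 1 to 4. On Cx43 KO 1 to 3 it lay above every WT array, and on Cx43 KO 4 below all but WT 3, which left a difference of 0.18 (SE 0.20, limma adjusted p = 0.853). Without that array the difference was 0.31 (limma adjusted p = 0.533).

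Cathepsins are the proteases of the lysosome, and 5 of 6 on the array were tested, 1 higher and 4 lower. Ctsb had the highest mean of all members, 2.94-fold above 0, with 1.52, 1.71, 1.86 and 1.20 for WT 1 to 4 and 1.26, 1.70, 1.45 and 1.73 for Cx43 KO 1 to 4. The genotypes overlapped, and the difference was -0.038 (SE 0.20, limma adjusted p = 0.985). Ctsl was above 0 as well, with 1.26, 0.60, 0.81 and 0.40 for WT 1 to 4 and 0.53, 0.84, 0.65 and 1.59 for Cx43 KO 1 to 4. Ctsz was mostly below it, with 0.24, -0.85, -0.56 and -0.80 for WT 1 to 4 and -0.66, -0.97, -0.53 and -0.12 for Cx43 KO 1 to 4. These genes differed by 0.13 and -0.075, less than their SD within either genotype. Ctsm, a cathepsin known from the rodent placenta, had -0.44, 0.28 and -0.58 for WT 1, 3 and 4 and -0.30, -0.35, -0.98 and -0.59 for Cx43 KO 1 to 4, and differed by -0.31 (SE 0.26, limma adjusted p = 0.805).

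Ctsc, which trims and activates the granule proteases of immune cells, varied more within Cx43 KO than any other tested member. Its ratios were 0.35, 0.62, 0.84 and 0.46 for WT 1 to 4 and -1.28, -0.98, 0.74 and 2.59 for Cx43 KO 1 to 4. The WT arrays were close together, Cx43 KO 1 and 2 lay below all of them and Cx43 KO 4 far above, so that the SD was 0.21 in WT and 1.79 in Cx43 KO. The difference of -0.30 (SE 0.70, limma adjusted p = 0.95) became -1.07 without Cx43 KO 4 (limma adjusted p = 0.334). The 8 microglia and macrophage markers with values on all arrays had means of 0.81, 1.48, 1.48 and 0.77 for WT 1 to 4 and -0.28, 0.23, 1.30 and 2.64 for Cx43 KO 1 to 4. These means were lowest on Cx43 KO 1 and 2 and highest on Cx43 KO 4, as Ctsc was. Not every marker followed them. Tmem119 was highest on Cx43 KO 3 at 2.11, against 0.86 on Cx43 KO 4, and Tyrobp on WT 2 at 1.29, against 1.06. Outside the means, Ly86 was highest on Cx43 KO 3 at 2.50 and Fcgr3 on WT 3 at 1.82, against 0.96 and 1.67 on Cx43 KO 4. The array held 17 such markers, of which 10 were tested, 0 of them with an unadjusted p under 0.05, and 5 were at 0 on all arrays (Fcer1g, Ptprc, Coro1a, Itgb2 and Mpeg1). Fibroblast, meningeal and mural markers (5 genes) had means of 1.35, -0.30, 0.072 and 0.81 for WT 1 to 4 and -0.75, -0.65, 0.41 and 1.90 for Cx43 KO 1 to 4. Of these genes Col3a1 spread the most, from -3.98 on Cx43 KO 1 to 3.67 on Cx43 KO 4. Col1a1 and Col6a1 were also highest on Cx43 KO 4, but Prrx1 was highest on WT 4 and Twist1 on WT 1. The part of these cell types in the cathepsin values was not tested.

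Within Cx43 KO, each of the 4 cathepsins with 8 values was highest on Cx43 KO 4, while Lamp1 and Atp6v0e2 were lowest there. Among the 54 members Cx43 KO 4 was the highest of the 8 arrays for 15 (27.8%, against 20.5% of named genes with 8 values), among them Atp6v0e, Sec61a1, Tmed2, Vps25, Ap2s1 and Ap3s1. It was the lowest for 5 (9.26%, against 22.8%), namely Atp6v0e2, Vps26b, Snx5, Snx15 and Snx33. Without Cx43 KO 4, 62 members were tested and 8 had an unadjusted p under 0.05 (12.9%, against 12.2% of all tested). These were Vamp2, Snx27, Snx9, Atp6v1c1 and Atp6v0e2, all higher, and Ctsc, Snx21 and Sec23ip, all lower, with 0 at an adjusted p of 0.05 by limma.

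**Figure D4:**
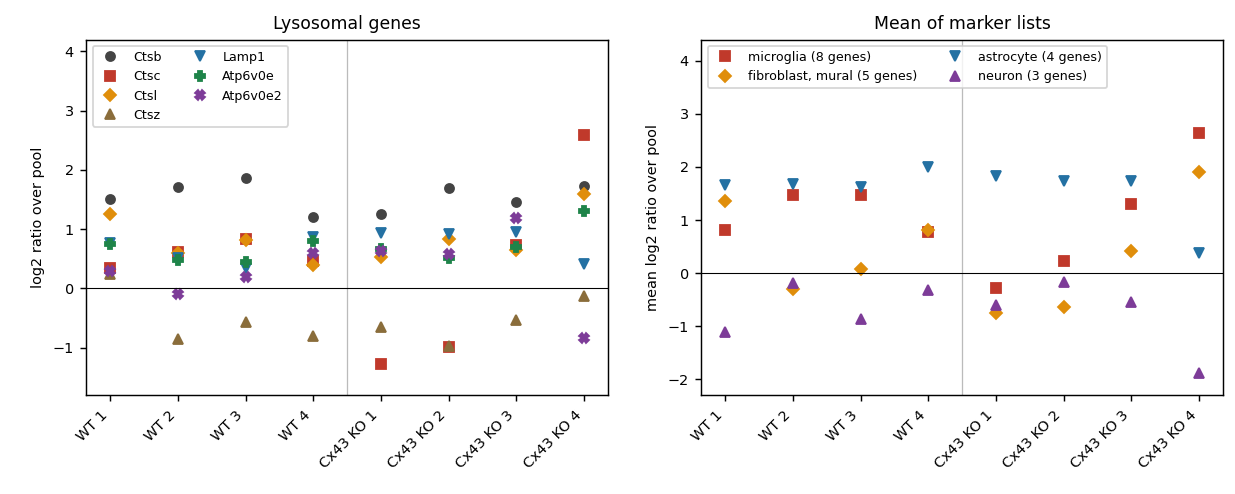
Log2 ratio over the pool on each array for 7 lysosomal genes (left) and the mean of 4 lists of cell type markers (right), with the WT arrays left of the grey line. On Cx43 KO 4, Ctsc and the microglia mean are at their highest, at 2.59 and 2.64. Tmem119 and Tyrobp, both within the microglia mean, are not at their highest there. Atp6v0e2, the astrocyte mean and the mean of the 3 neuron markers Map2, Nefm and Uchl1 are at their lowest on that array. Rbfox3 is not in the neuron mean and was at its highest there, at -1.13.

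Many lysosomal genes carry in their promoter the CLEAR element, bound by Tfeb and its relatives, whose core is the palindrome CACGTG, often extended to TCACGTGA. RefSeq promoters of assembly GRCm38.p6, from 250 bases before to 50 after each start, were found for 72 of the 92 members. The core was in the promoters of 12 of these genes (16.7%), against 8.09% of all genes in the table and 11.6% of those on the array. The extended form, which holds the core within it, was in 5 (6.94%, against 1.12% and 2.53%). Of 11 cathepsin, V-ATPase and Lamp genes, 4 held the core (Lamp1, Ctsl, Atp6v0d1 and Atp6v0e), and 2 of these the extended form (18.2%), Atp6v0d1 and Atp6v0e. Being palindromes, both read alike on either strand. Lamp1 and Ctsl are printed because on Cx43 KO 4 the former was at its lowest and the latter at its highest among Cx43 KO arrays. Sec23ip and Vps26a are printed as examples of the extended form. Atp6v0d1 and Atp6v0e hold it too and are not printed. Each sequence lies before the start and is given from 5′ to 3′ on the strand of the gene, with the motif in capitals.
Lamp1: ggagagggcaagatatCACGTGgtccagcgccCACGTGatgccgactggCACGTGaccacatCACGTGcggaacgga
Ctsl: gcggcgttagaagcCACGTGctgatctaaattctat
Sec23ip: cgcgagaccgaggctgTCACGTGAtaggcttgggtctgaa
Vps26a: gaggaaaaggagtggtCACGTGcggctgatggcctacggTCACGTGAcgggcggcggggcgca
The Lamp1 stretch is chr8:13159084-13159160 on the plus strand, with 4 cores between 61 and 15 bases before the start. That of Ctsl is chr13:64370735-64370770 on the minus strand, with 1 core 236 bases before the start. Sec23ip lies at chr7:128744800-128744839 on the plus strand, 53 bases before its start, and Vps26a, for 1 of its 2 starts in the table, at chr10:62486727-62486789 on the minus strand, with cores 175 and 151 bases before that start, the nearer one within the extended form. These matches and shares describe the letters in the windows, were not tested, and no measurement here bears on binding.

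Besides the COPII genes and the Sec61 and Sec62 genes of the ER membrane, 3 genes matched the Sec pattern. They encode proteins that bind lipids. Sec14l2 was the member furthest below 0, with -2.45, -2.41 and -2.29 for WT 1, 2 and 4 and -2.68, -2.49, -2.55 and -3.68 for Cx43 KO 1 to 4. All Cx43 KO values were under those of WT, but Cx43 KO 4 stood far from the others, and the difference was -0.47 (SE 0.29, limma adjusted p = 0.753) and -0.19 without that array. It was -0.30 with quantile and -0.063 with scale normalization. Sec14l1 ran from -0.073 to 1.00 and differed by 0.28. Sec14l4 had a value on 3 arrays, -2.55 to -2.40.

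Other genes of these pathways have names outside the patterns. Of 53 listed lysosomal genes 20 were on the array and 11 tested. Those tested were enzymes, membrane proteins and Tfe3, a relative of Tfeb. Among them 7 were higher and 4 lower in Cx43 KO, with a median difference of 0.091 and 0 past limma's test, adjusted or not. Among the 10 of them with 8 values, 9 were above 0 on every array. The mean of the 10 ran from 0.88 to 0.95 in WT and from 1.00 to 1.17 in Cx43 KO, without overlap. Single genes differed in both directions, from -0.30 for Arsb to 0.56 for Ppt1. Ppt1 alone lay at 0.69 on WT 1 and at 1.98 and 2.02 on Cx43 KO 1 and 2. The gap in the list mean rested on this gene. Without Ppt1 the genotypes overlapped, with the mean of WT 1 above those of Cx43 KO 1, 2 and 3. The list mean was not tested, and how often other lists of genes show such a gap was not counted. Of 112 listed trafficking genes, such as clathrin, Rab proteins, exocyst subunits and golgins, 63 were on the array and 32 tested, 21 higher and 11 lower, with a median difference of 0.13. None passed the adjusted test, and 2 had an unadjusted p under 0.05 (6.25%, against 7.5% of all tested), the endocytic Epn2 at 0.48 and the exocyst gene Exoc3 at -0.44. Among the 26 trafficking genes with 8 values, 6 were above 0 on every array and 5 below 0 on every array, with a median ratio of 0.068. Of all named genes with 8 values, 25.8% were always above 0 and 25.2% always below, with a median of 0.043.

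The other 28 members were not tested. A total of 17 had no ratio on any array, namely Sec23a, Sec23b, Sec24d, Sec31a, Sec61b, Sec62, Stx8, Stx17, Stx18, Atp6v0a1, Atp6v1d, Tmed10, Trappc9, Trappc13, Vps9d1, Ap1s3 and Ctss. An exact 0 may stand for a spot that was not read, so these genes are only listed at 0. The remaining 11 had a ratio on 1 to 6 arrays. Of these the COPI gene Cope had -0.60 and -0.92 for WT 1 and 4 and -0.31, -0.96, -0.87 and -0.23 for Cx43 KO 1 to 4, the ESCRT ATPase gene Vps4a -0.088 and 0.18 for WT 1 and 4 and 0.53, 0.57, 0.29 and -0.14 for Cx43 KO 1 to 4, and the p24 gene Tmed5 0.51 and 0.38 for WT 1 and 4 and 1.19, -1.38, 0.72 and 1.01 for Cx43 KO 1 to 4, with Cx43 KO 2 far below the rest. Sec24a had values on 4 arrays (0.41 to 0.78) and Trappc12 on 5 (0.40 to 0.97), both above 0 throughout. Snap23, Stx2, Stx12 and Ap4e1 had values on 2 arrays and Vps45 on 1.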

How the data were processed

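As deposited, each feature carried a signed log2 ratio between astrocyte and pool channels; that the logarithm has base 2 is an assumption. The sources used here do not name the dyes, scanner, background correction or normalization within arrays. Another base would rescale all differences and leave signs and p-values as they are. Between 42.4% and 63.4% of the 9568 features on an array were exactly 0 and were read as missing. Array medians before centring lay between 0.085 and 0.32. Each array was centred on its median, and features of a symbol were averaged. A single symbol was given for 7307 features, several for 318 and none for 1943. All 92 member symbols matched the RefSeq gene table, with 0 updated, and came from 130 features. For 5 tested members, the arrays averaged different features. Of 9 members with several features on all arrays, 4 had differences of 1 sign throughout.

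Genes with at least 3 values per genotype were fitted with limma 3.58.1 (R 4.3.3; lmFit and eBayes, two-sided, no block), with Benjamini-Hochberg adjustment over all 3505 and a threshold of 0.05. The members, lists and tests were chosen with earlier results of these data known. Genes named with full values were Vamp2, the highest and lowest ratio of each role, and the 8 smallest p in each direction. Other members given in full, such as Ctsc, were chosen after their values were seen. Pairing by lot batch comes from the labels. Deviations of same-numbered arrays from their genotype means correlated across 2596 genes and features at -0.184, 0.185, -0.131 and -0.185 for lot batches 1 to 4. Alternatives covered scaling, zeros, minimum values, features, array weights, the block and left-out arrays. The arrays give no counts, and their number limits the precision.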

Additional observations from a re-analysis of the deposited data

Results flagged for a closer look

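Among 54 groups of 4 arrays examined for the named genes, 6 held 1 array far from the other 3, its gap to the nearest divided by the whole range exceeding Dixon's critical value. Chance flags about 1 group in 20. Cx43 KO 4 was the distant array in 3 of them, at 0.405 for Lamp1 (the others 0.91 to 0.96), at -0.030 for Sec61g (the others -0.81 to -0.68) and at -3.68 for Sec14l2 (the others -2.68 to -2.49). Cx43 KO 2 was low for Sec24b, at 0.383 against 0.84 to 0.89. For that gene the arrays did not all average the same features, and its 2 features with 8 values had mean ratios of 0.35 and 0.50. The part of this in the low value was not tested. Cx43 KO 3 was low for Vps41, at 0.304 against 0.40 to 0.42, and still above every WT array. In WT, WT 3 was low for Trappc5, at -0.662 against -0.23 to -0.17.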

How the results depend on the processing

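Under all 21 alternatives, 0 members passed at an adjusted p of 0.05. Over all genes and features the count of such calls was 2 with array weights, 0 to 4 when arrays were left out (4 without Cx43 KO 4, 1 without WT 2), and 0 otherwise. The count of members at an unadjusted p of 0.05, 4 as reported, was 2 with quantile or scale normalization and with values required on all 8 arrays, 7 with exact 0 read as a ratio, 9 with array weights, 1 when a replicate block held the lot batch, and 0 to 8 when 1 array or lot batch was left out. Under the block the call was Ap1g1, and none of the 4 genes called without it. No adjusted call changed with the block. The members' median difference ran from -0.00077 with exact 0 read as a ratio to 0.149 without lot batch 1, and was 0.0264 without lot batch 4. Of 294 other values for the 16 named differences, 293 kept direction and side of the threshold. This count is no measure of robustness. These genes were chosen for their small p in the same data, and all lay far from an adjusted p of 0.05. Some alternatives also left a gene as it was, such as Vamp2 at 0.81 without WT 2, where it had no value. Copg1 turned to -0.032 with exact 0 read as a ratio, where missing spots enter as 0. The cause of the other shifts was not tested.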
